A study of Mus musculus with 6 samples.

Results

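Integrins are receptors of the cell surface, each made of an alpha and a beta chain, through which fibroblasts hold collagen, fibronectin and the basement membrane. Laminins are the secreted trimers of an alpha, a beta and a gamma chain that form the core of basement membranes, and several integrins bind them. Here the genes of both families were followed in NIH3T3 cells, an established line of mouse embryonic fibroblasts. All probes named on the array for an integrin alpha or beta chain or for a laminin alpha, beta or gamma chain were taken, whatever their signal. This gave 59 of the 61307 probes and 37 of the 50090 gene names on the array, of which 26 were integrin chains and 11 laminin chains.

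GFP cells expressed GFP alone and served as the control. LT7 (long cells) and ST7 (small cells) were clones overexpressing SIRT7, a nucleolar sirtuin deacetylase, as a SIRT7GFP fusion. The clones were isolated from confluent SIRT7GFP cultures in which colonies of small cells were surrounded by long ones, and each is thus 1 clonal line. GFP cells were expanded from a colony after dilution plating. All were grown in the same medium with serum. For each group 2 arrays were made from different passages, so that the spread between arrays is that between passages of a clone. The study profiled the clones against GFP cells to describe what SIRT7GFP overexpression changes. The transgenes were carried by the retroviral vector pCX4Neo, and the promoter is not given in the sources used here.

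In GFP and LT7 cells the detected members included the collagen receptor chain Itga11, the vitronectin receptor chain Itgb5, the common chain Itgb1 and the laminin chains Lama4, Lamb1-1, Lamb2 and Lamc1. LT7 differed from GFP in few members, and Itga9, a receptor chain for tenascin and osteopontin, was the only one to pass limma's test, with a 6.03-fold rise (limma adjusted p = 0.0446), a call that was lost under several other settings, among them no scaling between arrays and leaving out either GFP array. On the ST7 arrays 16 of the 24 members detected in GFP (66.7%), Itgb1 among them, were no longer well above background. Among all gene names so detected in GFP the share was 50.8%. Lamc1, Lamb2, Lama3, Itga3, Itgb2, Itgb3 and Itgb4 were kept, though other probes of Itga3, Itgb3 and Itgb4 were not detected in ST7. With these losses none of 24 known integrin pairs had both of its chains well above background in ST7, against 14 pairs in GFP and 14 in LT7.

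The ST7 arrays stood apart from the others. Between 25.8% and 26.4% of their probes were well above background, against 47.5% to 57.5% on the other arrays, and the 75th percentile of the signal was 16.3 and 17.1, against 317 to 384 elsewhere. Sirt7 itself was read at 3125 and 2480.2 on the GFP arrays and at 3633 and 2782 on the LT7 arrays. These signals overlapped, with a log2 difference of 0.29 (SE 0.21, limma adjusted p = 0.471) after the scaling described below, so that no rise of Sirt7 was detected in LT7. On the arrays labelled ST7 its brighter probe gave 2.85 and 3.28 and was not well above background. The RNA signals thus did not bear out the label there either. A probe of the mouse gene does not tell the transgene from the endogenous copy, and whether it reads the transgene was not tested. The study itself measured SIRT7GFP protein by immunoblot, with no significant difference between LT7 and ST7, and saw it in the nucleoli of both. LT7 and ST7 are used below for the arrays so labelled. Fewer cells expressing a gene and less RNA per cell cannot be told apart in such bulk samples.

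Markers of the fibroblast and of other cell types were read beside the members. All 8 fibroblast markers were well above background on both GFP arrays and both LT7 arrays, with a summed signal of 307143 to 309830 in GFP and 301624 to 315981 in LT7. In ST7 4 of the 8 were, and the sum was 15052 to 16592, with Pdgfra, Pdgfrb, Thy1 and Col3a1 not detected. Of 6 epithelial markers 3 were well above background on both arrays in GFP, 2 with LT7 and 4 with ST7, and their sum was 397 to 436 in GFP, 244 to 358 in LT7 and 1939 to 2029 in ST7. Krt18, a keratin of simple epithelia, was 6.64 and 4.64 on the GFP arrays, 20.05 and 25.0 with LT7 and 1881 and 1755 with ST7, and Epcam, an epithelial adhesion protein, was 86.7 and 94.0 in ST7 and undetected elsewhere. Cdh1, the epithelial cadherin, lay between 2.96 and 5.04 on all arrays and was never well above background. Krt18 thus made up most of the ST7 sum. Nearly all of the GFP sum came from the other keratins of the list, Krt5, Krt8 and Krt14, whose summed signal before scaling was lower in ST7. Of 8 leukocyte markers 3, 3 and 2 were well above background on both arrays in GFP, LT7 and ST7, with sums of 206 to 302, 349 to 406 and 148 to 214, and Ptprc, the pan-leukocyte marker, was undetected in all. None of 4 endothelial markers was detected on any array (sums of 11.2 to 19.2). The part of these differences in the ST7 results was not tested.

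Each probe is a DNA strand of 60 bases. The sequences that matter most for the ST7 result are those of laminin probes that disagree there, since they show which stretch of the same transcript was read. Lama4, the alpha chain of fibroblast and vessel laminins, was measured by 3 probes, of which an overlapping pair is shown, and the capitals mark the 29 bases that both share.
Lama4 brightest probe, not detected in ST7: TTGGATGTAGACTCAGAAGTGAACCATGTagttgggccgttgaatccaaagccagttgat
Lama4 overlapping probe, detected on both ST7 arrays: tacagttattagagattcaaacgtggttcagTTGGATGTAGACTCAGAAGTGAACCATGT
The other pair shows the probes behind the contrast between the beta chains, of which beta1 was lost and beta2 was kept on the ST7 arrays.
Lamb1-1 probe, not detected in ST7: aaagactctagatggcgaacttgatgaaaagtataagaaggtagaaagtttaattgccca
Lamb2 probe, detected on both ST7 arrays: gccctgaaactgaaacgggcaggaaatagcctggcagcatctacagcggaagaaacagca

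A signal was taken as detected where the scanner software marked it as well above background, and each gene was read on its brightest probe. Of the 37 members 24 (64.9%) were detected on both GFP arrays, where 50.4% of all gene names were. The number was 22 (59.5%) in LT7 against 42.3% of all names, and 7 (18.9%) in ST7 against 23.0%. The share of members thus lay above that of all names in GFP and LT7 and below it in ST7, a difference that was not tested. Integrin chains numbered 17 in GFP, 17 with LT7 and 4 with ST7, and laminin chains 7, 5 and 3. The smallest signal that counted as detected was 13.5 on both GFP arrays, 20.02 and 22.3 on the LT7 arrays and 13.9 and 15.5 on the ST7 arrays. A gene between these values could therefore be detected in GFP and missed in LT7.

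**Figure D1:**
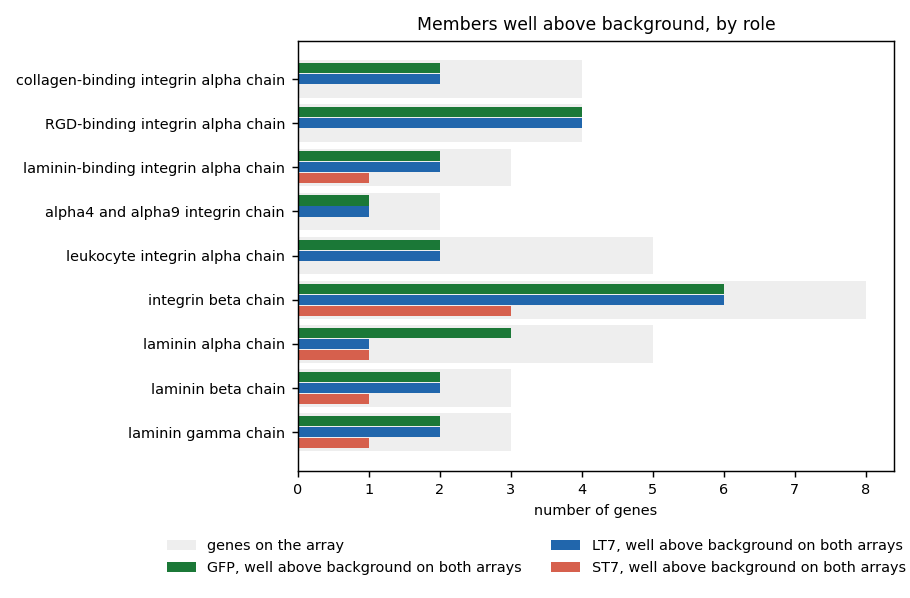
Number of member genes in each role (horizontal axis), with the genes on the array in grey and those well above background on both arrays of GFP, LT7 and ST7 in colour. All 4 RGD-binding alpha chains were detected in GFP and LT7 and none in ST7, whereas 3 of the 8 integrin beta chains remained.

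The collagen-binding alpha chains were represented by Itga1 and Itga11, and Itga2 and Itga10 were not detected in any group. Itga11, the main fibrillar collagen receptor chain of fibroblasts, gave 6216 and 4513 on the GFP arrays, 6918 and 5669 with LT7 and 3.001 and 4.13 with ST7. Itga1, which prefers the collagen of basement membranes, gave 163 and 96.1 on the GFP arrays, 38.8 and 54.4 with LT7 and 2.83 and 3.13 with ST7. Both were at background in ST7, and for Itga1 the LT7 arrays also lay below both GFP arrays.

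The chains that recognise the RGD motif of fibronectin and vitronectin were all detected in GFP and LT7. Itgav, which pairs with several beta chains, gave 669 and 895 on the GFP arrays, 1080.5 and 702 with LT7 and 5.02 and 3.20 with ST7. Itga5, the fibronectin receptor chain, gave 593 and 485, then 747 and 641, then 3.29 and 3.23. In both genes the LT7 and GFP signals were close, with those of Itgav overlapping, and the ST7 signals were at background. Itga8, which binds nephronectin, gave 176 and 159 on the GFP arrays, 283 and 172 with LT7 and 2.97 and 3.48 with ST7. Itga2b, best known from platelets, gave 189 and 129 on the GFP arrays, 279 and 275 with LT7 and 3.64 and 3.16 with ST7. The whole RGD group was thus without a detected member in ST7.

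Among the laminin-binding alpha chains Itga3 and Itga6 were detected in GFP and LT7. Itga6 gave 343 and 259 on the GFP arrays, 334 and 181 with LT7 and 4.56 and 3.16 with ST7, while Itga3 gave 289 and 287, then 294 and 252, then 21.7 and 16.0. Itga3 was the only alpha chain whose brightest probe was detected on both ST7 arrays. Its signal of 16.0 on the second lay just above the smallest detected signal there, 15.5, and its other probes were not detected in ST7. Itga7, the laminin receptor chain of muscle, was read at 4.05 to 10.1 in GFP and LT7 and at 20.6 and 13.5 in ST7, where only the first array was well above background.

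Itga9, which shares ligands with Itga4, gave 39.7 and 32.7 on the GFP arrays, 185 and 222 with LT7 and 2.91 and 3.22 with ST7. It was the one member whose LT7 signals lay several times above those of GFP on both arrays. Its partner in sequence, Itga4, was not detected. Of the alpha chains known from leukocytes, Itgae gave 39.5 and 33.9 on the GFP arrays, 53.6 and 37.0 with LT7 and 6.92 and 15.6 with ST7. Itgal gave 43.8 and 36.8 on the GFP arrays, 61.8 and 220.1 with LT7 and 9.24 and 76.8 with ST7. The replicates of Itgal differed widely in LT7 and in ST7, and only the second ST7 array was well above background. Itgad, Itgam and Itgax were not detected.

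Of the beta chains, Itgb5 gave 20789 and 18761 in GFP and 15737 and 15368 in LT7, and Itgb1, the partner of most alpha chains, gave 2229 and 2301, then 2296 and 1704. On the ST7 arrays Itgb5 was read at 2.87 and 3.34 and Itgb1 at 2.81 and 3.16. Itgb7 gave 845 and 931 on the GFP arrays, 861 and 589 with LT7 and 4.79 and 3.75 with ST7. These beta chains were detected in GFP and LT7 and at background in ST7. The other beta chains behaved differently. Itgb3, the partner of Itgav and Itga2b, gave 200.003 and 284 on the GFP arrays, 121 and 193 with LT7 and 123 and 94.8 with ST7. Itgb4, the partner of Itga6 in hemidesmosomes, gave 172 and 163, then 293 and 242, then 20.2 and 26.1. Itgb2, the leukocyte beta chain, gave 73.5 and 52.9, then 62.0 and 48.8, then 38.3 and 27.5. Each of these last 3 was detected on all 6 arrays, although every ST7 signal but that of 1 Itgb3 array, which lay within the LT7 range, was lower than in GFP and LT7. Itgb6 and Itgb8 were not detected.

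Among the laminin alpha chains Lama4 gave 2724 and 2372 on the GFP arrays, 4678 and 2909 with LT7 and 2.89 and 3.71 with ST7. Lama5, widely found in basement membranes, gave 36.0 and 22.3 on the GFP arrays, 12.5 and 4.77 with LT7 and 2.87 and 3.26 with ST7. Lama3, the alpha chain of epithelial anchoring laminin, gave 26.2 and 19.0 on the GFP arrays, 17.4 and 15.4 with LT7 and 20.4 and 22.8 with ST7. Lama3 was near the limit of detection throughout and was not well above background on the LT7 arrays, where that limit was higher. Lama2, the alpha chain of muscle, was detected on 1 array, LT7 replicate 2 (28.4), and Lama1, the alpha chain of the early embryo, on none.

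Of the beta and gamma chains, Lamb1-1 gave 3698 and 3568 on the GFP arrays, 3166 and 3086 with LT7 and 2.84 and 3.11 with ST7, whereas Lamb2 gave 3494 and 3222, then 3174 and 3291, then 542 and 423. Lamc1, shared by most laminins, gave 8718 and 7461 on the GFP arrays, 8729 and 7445 with LT7 and 4142 and 4543 with ST7. The LT7 and GFP signals of Lamc1 overlapped, and both ST7 signals lay below them. Lamb3, a beta chain of epithelia, was detected on 1 array, ST7 replicate 2 (24.7), and was read at 3.84 on the other. Lamc3 was not detected. Of the 37 members, 13 were not well above background on both arrays of any group, with signals from 2.74 to 28.4, and no member was saturated.

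**Figure D2:**
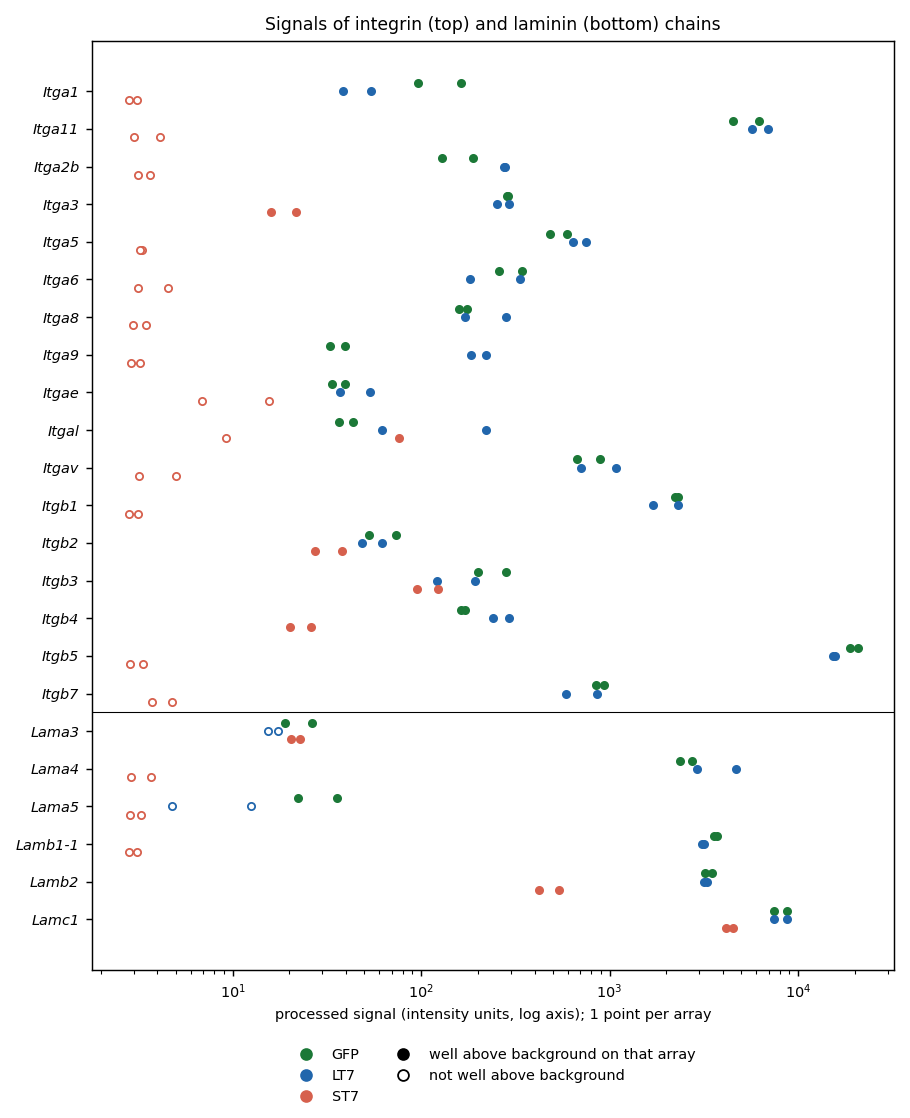
Processed signal (intensity units, log axis) of 23 members detected on both GFP arrays, with 1 point per array in GFP (green), LT7 (blue) and ST7 (red). Filled points are well above background on that array, and in ST7 most points are open and lie near 3, while Lamc1 lies at 4142 and 4543.

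The first comparison set the long cells against the control cells. Sirt7 itself did not pass limma there, as given above. Log2 signals were set relative to each array's 75th percentile. The study's methods call genes by a fold change of 0.8 in each replicate and 1 in their mean, without naming the scale, and the values were read here as log2 ratios (at least 0.8 on each LT7 array and above 1 on average, or the same below 0). By this fold rule 3 members (8.11%) were higher in LT7 against 3.10% of all gene names, and 2 (5.41%) were lower against 3.13%. The members called higher were Itga2, Itga9 and Lama2, and those called lower were Itga1 and Lama5. With limma's moderated test over all probes 1 member (2.70%) passed at an adjusted p under 0.05, against 0.182% of all gene names. An unadjusted limma p under 0.05 was found for 9 members, of which Itgad and Lama1 were detected on no array. The share of all gene names is not given for that threshold, so no excess is read from this count.

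Itga9 rose in LT7 by 2.59 on the log2 scale (SE 0.22, limma adjusted p = 0.0446), which is 6.03-fold. Both of its probes lay higher on both LT7 arrays than on both GFP arrays. The other probe gave 49.8 and 28.3 in GFP and 161 and 143 in LT7, a log2 difference of 2.11 (SE 0.28) with a limma adjusted p of 0.102. The sign of the difference was the same under every alternative tried, with values from 0.42 with scaling on spike-in controls to 2.78. The spike-in controls of LT7 replicate 1 lay at 12.30 on the log2 scale, and those of the other arrays between 8.02 and 8.27. The call was close to the threshold. Its adjusted p ran from 0.00941 to 0.82 over these alternatives, and with a fit on the GFP and LT7 arrays alone, chosen after seeing the data, it was 0.116. Leaving out GFP replicate 1 or 2, or either ST7 array, also ended the call, with adjusted p of 0.27, 0.126 and 0.116. LT7 replicate 1 was scanned apart from the other 5 arrays, and without it the difference was 2.78 (limma adjusted p = 0.0421).

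The other members of the fold rule did not pass limma. Itga1 differed by -1.35 on the log2 scale (SE 0.31, limma adjusted p = 0.102), a level 2.55-fold below GFP, and its other probes gave differences of -1.30 and -1.95. Lama5 was at least 1.25-fold lower, with no LT7 array well above background (log2 difference -1.77, SE 0.46, limma adjusted p = 0.102). Lama2 was at least 1.81-fold higher in LT7 (log2 difference 1.27, SE 0.34, limma adjusted p = 0.102), with 1 of the LT7 arrays and neither GFP array well above background, and lay below GFP by -0.90 with scaling on the spike-in controls. Itga2 met the fold rule without being well above background on any array, and no fold is given for it. The median log2 difference of all 37 members was 0.26, against 0.17 of all gene names. For the 24 members detected on both arrays of GFP or LT7 it was 0.03, against -0.03 of all gene names so detected. Without scaling these medians were -0.07 and -0.12.

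**Figure D3:**
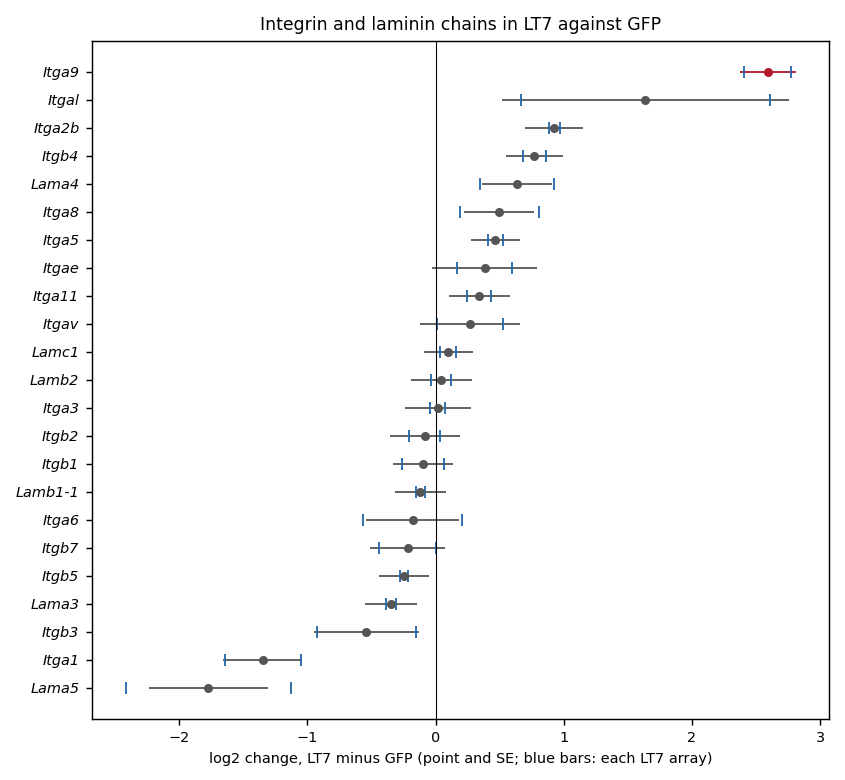
Log2 change of LT7 against GFP, relative to each array's 75th percentile, for 23 members well above background on both arrays of GFP or LT7. Points with bars give the fitted change and its SE and the blue marks each LT7 array against the GFP mean. Itga9, in red at 2.59, was the only member below an adjusted p of 0.05.

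The comparison of ST7 with GFP asks the same of the small cells. Because the ST7 arrays were dim, the direction of a moderate difference depends on how arrays are put on one scale, and signals before scaling are given beside the scaled values. Over all probes the median difference of ST7 from GFP was 3.72 after the percentile shift and -0.68 without scaling. Of the 24 members detected on both GFP arrays, 16 (66.7%) were detected on neither ST7 array and 7 (29.2%) on both. Among all 25260 gene names so detected in GFP these shares were 50.8% and 41.9%. Before scaling, all of the 24 had a lower mean log2 signal in ST7 than in GFP. The mean GFP signal of the 16 lost members ran from 29.1 to 19775 and that of the 7 kept ones from 22.6 to 8089.5, so that both classes held weakly and strongly read probes.

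After the shift 13 members (35.1%) were lower in ST7 than in GFP by limma and detected on both GFP arrays, against 19.1% of all gene names. For 8 of these a lower limit of the fold could be given, taking on each ST7 array the higher of the probe's own value and the smallest detected value. Itgb5 was at least 63.6-fold lower in ST7 (limma adjusted p = 1.68e-05), and at least 1341-fold lower before scaling. Itga11 was at least 17.0-fold lower and Itgb1 at least 7.29-fold, and before scaling these limits were 360-fold and 154-fold. Of the laminin chains Lamb1-1 was at least 11.7-fold and Lama4, by its brightest probe, at least 8.18-fold lower, or 247-fold and 173-fold before scaling. By its overlapping probe, detected on both ST7 arrays, Lama4 was 1.36-fold lower after the shift (limma adjusted p = 0.198) and 28.8-fold lower before scaling, so the limit does not hold for every probe. Itgb7, Itgav and Itga5 were at least 2.86-fold, 2.49-fold and 1.73-fold lower, with limits before scaling of 60.2-fold, 52.5-fold and 36.4-fold. With the mean of all probes of a gene, Itgav differed by -0.26 (limma adjusted p = 0.494) and was no longer called. The limma adjusted p of these 8 lay between 1.68e-05 and 0.000587.

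The other members called lower included Itga1, Itga2b, Itga6 and Itga8. Their GFP signals, once scaled, lay below the smallest detected value of the ST7 arrays, so that no limit of the fold is given after the shift. Before scaling they were at least 8.51-fold, 10.6-fold, 20.3-fold and 11.4-fold lower in ST7. Itga9, Itgae and Lama5 were likewise detected in GFP and not in ST7, and before scaling were at least 2.45-fold, 2.48-fold and 1.92-fold lower. After the shift their fitted differences were 0.84 (limma adjusted p = 0.0133), 2.59 (0.00178) and 1.19 (0.0531), which is the opposite direction, and with no ST7 array well above background these are not measured rises. By their brightest probes the RGD-binding and collagen-binding alpha chains detected in GFP, with the beta chains Itgb1 and Itgb5, were not detected in ST7. Itgb3, the partner of Itgav and Itga2b, was detected on both ST7 arrays by its brightest probe.

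After the shift 6 members (16.2%) were higher in ST7 than in GFP by limma and detected on both ST7 arrays, against 19.1% of all gene names, a share near that of the array as a whole. These were Lama3, Lamc1, Itgb2, Itgb3, Lamb2 and Itgb4. Lamc1 differed by 3.50 on the log2 scale (SE 0.19, limma adjusted p = 2.24e-05), while its signal before scaling was 1.86-fold lower in ST7. Lama3 differed by 4.35 (SE 0.20, limma adjusted p = 1.68e-05), with signals before scaling that overlapped those of GFP. Itgb2 and Itgb3 differed by 3.46 (SE 0.27) and 3.26 (SE 0.41) after the shift, and were 1.92-fold and 2.21-fold lower before scaling. Lamb2 differed by 1.59 (SE 0.24) and Itgb4 by 1.54 (SE 0.22), and these were 7.01-fold and 7.28-fold lower before scaling. Itga3 differed by 0.45 (SE 0.26, limma adjusted p = 0.148) and was 15.4-fold lower before scaling.

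No member kept in ST7 was higher there under all scalings. Without scaling all 7 had lower values in ST7 than in GFP, and with scaling on the spike-in controls all but Lama3 did. With the percentile taken over probes detected on all 6 arrays, Lama3, Lamc1, Itgb2 and Itgb3 stayed above GFP while Lamb2, Itgb4 and Itga3 fell below it. Lamb2 also fell below with normexp background correction.

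**Figure D4:**
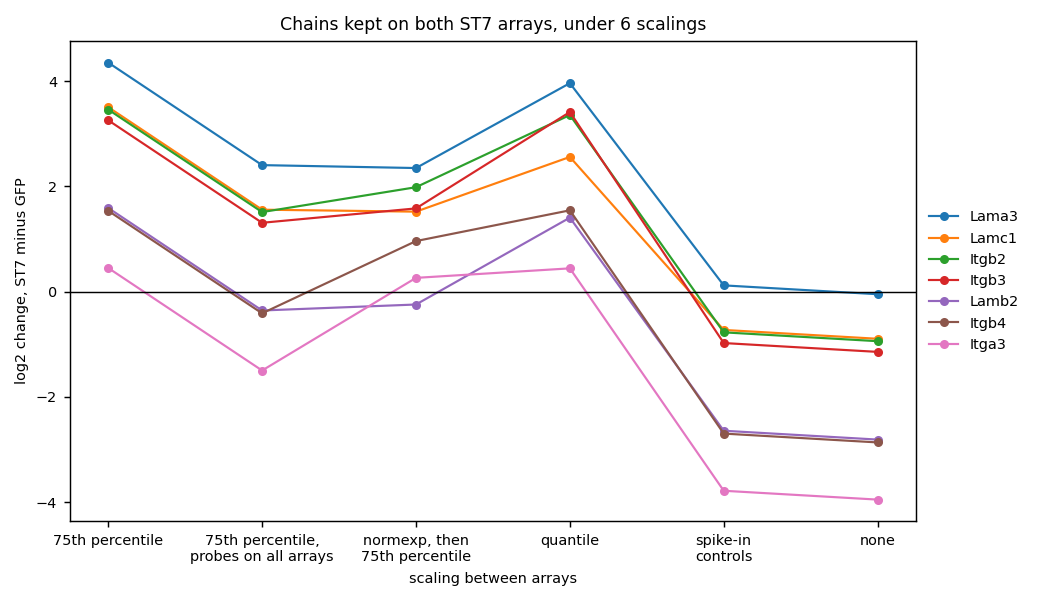
Log2 change of ST7 against GFP (vertical axis) for the 7 members detected on both ST7 arrays, under 6 ways of scaling the arrays (horizontal axis). The values of Lama3 run from 4.35 after the percentile shift to -0.05 without scaling, and those of Itga3 from 0.45 to -3.95.

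Probes of the same gene did not always give the same answer in ST7. Of the 35 member probes well above background on both GFP arrays, 8 (22.9%) were so on both ST7 arrays, against 40.1% of all such probes, 25 were on neither and 2 on 1 array. The overlapping Lama4 probe printed above gave 1771 and 1332 on the GFP arrays, 3032 and 1895 with LT7 and 60.6 and 47.0 with ST7. The brightest probe, which shares 29 bases with it, was at 2.89 and 3.71 in ST7, and the remaining probe, at 978 and 781 in GFP, was at 2.85 and 3.14. Relative to GFP the overlapping probe differed by -0.45 on the log2 scale in ST7 (SE 0.30, limma adjusted p = 0.198).

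The brightest Itgb4 probe and the other Itgb4 probe share 50 of their 60 bases. The other one gave 136 and 115 on the GFP arrays, 209 and 207 with LT7 and 3.59 and 7.61 with ST7, where it was not detected. Both read Itgb4 alike in GFP and LT7, and in ST7 they differed in detection and in the sign of the scaled difference (1.54 and -0.19). Over all genes, 283 pairs of probes shared at least 20 bases at their ends and were both detected in GFP, and of these 31 (11.0%) were split in this way in ST7. Both such pairs of the members were split.

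Itgb3, Itga3 and Itga1 also had probes that disagreed in ST7. The other Itgb3 probe gave 123 and 96.8 on the GFP arrays, 169 and 129.8 with LT7 and 2.84 and 3.15 with ST7, and differed by -0.79 (SE 0.21, limma adjusted p = 0.014) where the brightest had differed by 3.26. The other Itga3 probes gave 13.1 and 13.7, and 2.95 and 7.00, in ST7, and neither was detected there. One Itga1 probe ran against the brightest, with 99.6 and 24.5 on the GFP arrays, 5.03 and 28.2 with LT7 and 79.3 and 15.4 with ST7, where only the first array was well above background. Kept status in ST7 is therefore that of a probe and not of a gene for Itga3, Itgb3, Itgb4 and Lama4. The kept member probes had a higher median GC content than the lost ones, 48.3% for the 8 kept and 45.0% for the 25 lost, as the kept probes had over all probes, with 45.0% and 41.7%. The part of base composition in the ST7 result was not tested.

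**Figure D5:**
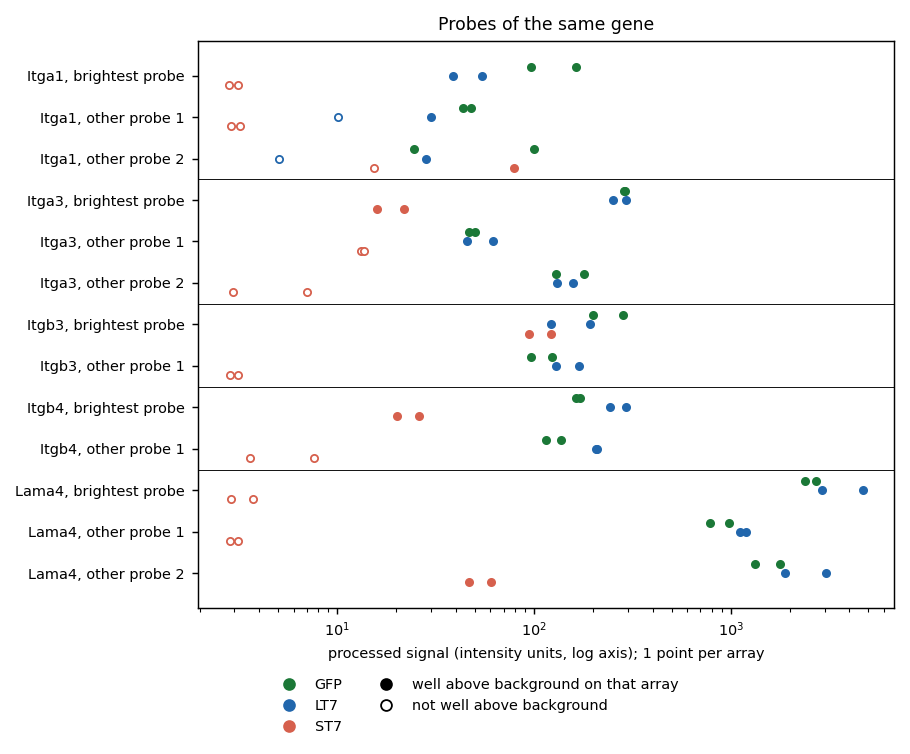
Processed signal (intensity units, log axis) of each probe of 5 genes, with 1 point per array, filled where well above background. In ST7 the brightest Lama4 probe lies at 2.89 and 3.71 and a probe overlapping it by 29 bases at 60.6 and 47.0, while in GFP and LT7 all Lama4 probes are filled, the lowest at 781.

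Set against LT7 in place of GFP, ST7 gave nearly the same lists, and since the ST7 arrays are shared by both comparisons this is no separate support. After the shift 6 members were higher in ST7 and detected on both ST7 arrays, against 19.1% of all gene names, and 12 were lower and detected on both LT7 arrays, against 19.0%. Itga9 was among the lower ones here, with no limit of the fold after the shift, and Itga1 was not. After the shift the ST7 level of Lama3 exceeded that of LT7 by at least 20.1-fold, whereas before scaling the limit was 1.02-fold.

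An integrin reaches the cell surface as a pair and a laminin is secreted as a trimer, so detection was also counted over 24 known pairs and 14 known trimers. RNA for all chains says only that they were read together in the same culture. All chains were detected for 14 integrin pairs in GFP, the same 14 in LT7 and none in ST7. The pairs of GFP and LT7 were Itgb1 with Itga1, Itga3, Itga5, Itga6, Itga8, Itga9, Itga11 and Itgav, Itgav with Itgb3 and Itgb5, Itga2b with Itgb3, Itga6 with Itgb4, Itgae with Itgb7 and Itgal with Itgb2. In ST7 Itga3 lacked Itgb1, Itgb3 lacked Itgav and Itga2b, and Itgb4 lacked Itga6. With the weaker mark of a positive and significant signal, 3 pairs were complete in ST7, Itgav with Itgb3, Itgae with Itgb7 and Itgal with Itgb2.

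Of the laminin trimers 6 were complete in GFP, those of alpha3, alpha4 or alpha5 with beta1 or beta2 and gamma1. In LT7 the alpha4 trimers with beta1 and beta2 remained, and the loss of the others rests on Lama3 and Lama5, whose signals were near the limit of detection. In ST7 1 trimer was complete, of alpha3, beta2 and gamma1. It too rests on Lama3, at 20.4 and 22.8 in ST7, where the smallest detected signals were 13.9 and 15.5. The other Lama3 probe gave 11.7 and 4.93 in ST7 and was not detected on any array. With any probe of a gene counted, the alpha4 trimer with beta2 and gamma1 was complete in ST7 as well, through the overlapping Lama4 probe.

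Other genes of the adhesion machinery were read from fixed lists. Of 30 focal adhesion adaptors and kinases, which link integrins to actin, 28 were detected on both GFP arrays, 25 on both LT7 arrays and 13 on both ST7 arrays. Of all gene names 50.4%, 42.3% and 23.0% were so detected. By limma 10 were higher and 13 lower in ST7 than in GFP after the shift, where 19.1% of all gene names were called in each direction. Tns1 and Actn1, which tie integrins to actin filaments, were also higher before scaling. Tns1 gave 2045 and 2179.9 in GFP and 6093 and 8100.1 in ST7, and Actn1 775 and 660.5 in GFP and 2399 and 2345 in ST7, so that both were 70.2-fold and 69.9-fold higher after the shift and 3.33-fold and 3.32-fold higher before it. Sharpin, an inhibitor of integrin activation, and Bcar1, a scaffold of focal adhesions, were at least 24.1-fold and 17.8-fold lower after the shift. Of the 28 detected in GFP 13 were kept in ST7, a share near the 41.9% of all gene names.

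Of 16 basement membrane partners 13 were detected on both arrays in GFP, 13 with LT7 and 3 with ST7, and 2 were higher and 10 lower in ST7 by limma. Of all gene names 50.4%, 42.3% and 23.0% were so detected, and 19.1% were called in each direction. Nid1, the nidogen that bridges laminin and collagen IV, was at least 64.1-fold lower, and Agrn, a laminin-binding proteoglycan, at least 55.5-fold. Col4a4 gave 822 and 934 in GFP and 1261 and 1464 in ST7, a level 1.55-fold higher before scaling and 32.7-fold after the shift. Dag1, the laminin receptor dystroglycan, gave 1377 and 949 in GFP and 231 and 238 in ST7, which was 4.88-fold lower before scaling and 4.33-fold higher after it. All 4 hemidesmosome partners on the array were detected in GFP and LT7 and none in ST7, and Cd151, a tetraspanin partner of laminin receptors, and Plec1, the plectin linker, were at least 18.8-fold and 7.39-fold lower.

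Of 23 integrin ligands other than laminins 16 were detected on both arrays in GFP, 14 with LT7 and 2 with ST7, with 1 higher and 12 lower in ST7 by limma, against the same shares of all gene names (23.0% detected in ST7, 19.1% called in each direction). Spp1, osteopontin, was saturated on the GFP arrays and at 8.99 and 3.13 in ST7, at least 204-fold lower. Mfge8, a ligand of Itgav pairs, was saturated in GFP and gave 42.4 and 41.9 in ST7, at least 72.5-fold lower. Npnt and Madcam1 lay the other way after the shift, by 18.2-fold and 18.9-fold, with 1 ST7 array well above background for each, and before scaling lay 1.16-fold and 1.12-fold below GFP. In LT7 no gene of these 4 lists passed limma. Its unadjusted p was under 0.05 for 9 focal adhesion genes, 4 basement membrane partners, 1 hemidesmosome partner and 8 ligands. The share of all gene names is not given for that threshold, so no excess is read from these counts. By the fold rule 2 focal adhesion genes were lower in LT7, 1 basement membrane partner was higher, and of the ligands 3 were higher and 2 lower, where the rule called 3.10% of all gene names higher and 3.13% lower.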

How the data were processed

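RNA of 6 samples was labelled with Cy3 after oligo-dT priming and hybridised to one-colour Agilent mouse arrays, with 2 arrays in each of 3 groups. The intensity values are the processed signals as deposited by the authors, which Agilent Feature Extraction 10.5.1.1 (per the file headers) had corrected for background. The deposited series matrix holds the authors' log2 values after a shift to the 75th percentile in GeneSpring, and was used as an alternative.

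From 61657 spots that were not controls, outlier spots were left out, spots of a probe were averaged and log2 signals were shifted by each array's 75th percentile. A gene was read on the probe with the highest mean signal. limma 3.58.1 in R 4.3.3 was fitted to all 6 arrays, with Benjamini-Hochberg adjustment over 61307 probes, and had been tested on simulated data. Where no array of the dimmer group was well above background, folds are limits against the higher of the smallest detected signal and the probe's own. The number of arrays limits the precision, and the p-values measure the spread between passages of a clone.

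The members and lists were chosen with earlier results of these data known. Signals were given for members detected on both arrays of a group, changes for members past limma or the fold rule in LT7 or detected on both arrays of GFP or ST7, and at most 4 genes from each partner list. Of 39 accessions of the members 36 were found in the RefSeq table of GRCm38.p6, used for names only, where Lamb1-1 is Lamb1. Probe sequences are those of the scanner files. Alternatives covered the scaling between arrays, the background correction, dim probes, the series matrix, the mean of a gene's probes, the replicate number as a block, the mark of detection and each array left out. Genome positions of the probes were not analysed here. The values of 1 member are not reported here, though it is in the counts.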

Additional observations from a re-analysis of the deposited data

Results flagged for a closer look

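Itga9, the member called in LT7, was detected on both LT7 arrays and on neither ST7 array. It was 6.03-fold higher in LT7 than in GFP. In ST7 its fitted difference from GFP was 0.84 after the percentile shift (limma adjusted p = 0.0133), which is not a measured rise. The fitted difference between the clones, ST7 minus LT7, was -1.75 on the log2 scale after the shift (limma adjusted p = 0.000638). There the LT7 mean of -0.70 lay below the smallest detected ST7 values of -0.22 and -0.14, so no fold is given. Before scaling the LT7 level of Itga9 exceeded that of ST7 by at least 13.8-fold, and with normexp background correction the difference was 0.10 (adjusted p = 0.483).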

How the results depend on the processing

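The LT7 call lay near its threshold, and the members higher in ST7 turned direction with the scaling between arrays. The values of Itgb5, Itga11, Itgb1, Itgb7, Itgav, Itga5, Lama4 and Lamb1-1 lay lower in ST7 than in GFP under every alternative run. For Itgav the difference with the mean of all probes was only -0.26 (limma adjusted p = 0.494). The overlapping Lama4 probe differed by -0.45 in the main fit (limma adjusted p = 0.198). The cause of these differences was not tested. By the fold rule 5 members changed in LT7, and 3 did with quantile normalization, 1 with normexp background correction and 3 with dim probes left out. Only 2 of the 5 were still among those called with spike-in scaling, and only 2 without GFP replicate 1. By limma 1 member was called in LT7 (Itga9), and 0 without scaling, with the percentile over probes detected on all 6 arrays, with quantile normalization, with spike-in scaling, with the mean of all probes of a gene and with the fit on GFP and LT7 alone (added after seeing the data). Leaving out an array gave 0 to 1, with 0 without GFP replicate 1, GFP replicate 2, ST7 replicate 1 or ST7 replicate 2. Same-numbered replicates did not deviate together (correlations 0.078, 0.035 and -0.023), and with the replicate block the LT7 count was 0.

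Members higher in ST7 than in GFP (6) numbered 0 without scaling and 0 with spike-in scaling, and those higher than in LT7 (6) likewise 0 and 0. Members lower in ST7 than in GFP (13) numbered 21 without scaling and 8 with normexp. Those lower than in LT7 (12) numbered 19 without scaling, 8 with spike-in scaling and 8 with normexp. With the mean of all probes of a gene both counts were 10. With the mark of a positive and significant signal, detected members in ST7 rose from 7 to 15, complete integrin pairs in ST7 from 0 to 3, and laminin trimers from 6 to 12 in GFP and from 2 to 8 in LT7. With any probe of a gene, trimers in ST7 were 2 in place of 1.

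Without scaling, the log2 differences of ST7 from GFP were -3.95 for Itga3, -0.59 for Itgal, -0.94 for Itgb2, -1.14 for Itgb3, -2.86 for Itgb4, -0.049 for Lama3, -2.81 for Lamb2 and -0.89 for Lamc1, all positive after the percentile shift. With spike-in scaling they were -3.78 for Itga3, -0.42 for Itgal, -0.77 for Itgb2, -0.98 for Itgb3, -2.70 for Itgb4, -2.64 for Lamb2 and -0.73 for Lamc1. With the percentile over probes detected on all 6 arrays they were -1.50 for Itga3, -0.41 for Itgb4 and -0.36 for Lamb2, and with normexp -0.24 for Lamb2. Lama2 in LT7 was at -0.90 with spike-in scaling, where the controls of LT7 replicate 1 lay at 12.30 on the log2 scale and those of the other arrays between 8.02 and 8.27. Itga9 in ST7 against LT7 was at 0.10 with normexp.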

Other observations

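Among the matrix ligands of integrins, some lay apart in LT7 without passing limma. These were chosen after their values were seen. Edil3, a ligand of Itgav pairs, gave 60.2 and 70.9 on the GFP arrays and 406 and 328 on the LT7 arrays, a log2 difference of 2.58 (SE 0.25, limma adjusted p = 0.0533). Postn, the matricellular protein periostin, gave 11618 and 9110.2 against 29137 and 26732 (log2 difference 1.54, SE 0.19, limma adjusted p = 0.0967). Tnn, a tenascin, gave 152 and 146 against 439 and 610.3 (log2 difference 1.90, SE 0.27, limma adjusted p = 0.102). Thbs1, thrombospondin, ran the other way, with 2319 and 2349 against 250.3 and 674 (log2 difference -2.41, SE 0.52, limma adjusted p = 0.102). For each of the 4 genes the GFP and LT7 signals did not overlap, which also held for 19 of the 37 members (51.4%). The share of all gene names is not given for this, so nothing is read from it.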
